A study of Homo sapiens with 6 samples.

Results

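The respiratory chain subunits encoded in the nucleus were examined in SKOV3.ip1 ovarian carcinoma cells carrying either of 2 mutant forms of PEA-15. Members were all probe sets assigned to a single gene whose symbol is NDUFA, NDUFB, NDUFC, NDUFS or NDUFV with a digit, SDHA to SDHD, any symbol starting UQCR, or COX5, COX6, COX7 or COX8 with a letter. This rule took 112 of 54613 probe sets, which belong to 60 of 19775 genes. It used names and no measured value. Of these, 107 probe sets of 56 genes encode subunits: 61 probe sets of 32 genes for complex I, 10 of 3 genes for complex II, 13 of 6 genes for complex III and 23 of 15 genes for complex IV. The other 5 probe sets belong to 4 genes that encode no subunit (the pseudogene COX6A1P1 and the noncoding transcripts NDUFB2-AS1, NDUFV1-DT and NDUFV2-AS1), and none of these 5 differed between the lines at the threshold used below. SDHB, NDUFS5, NDUFS8, NDUFC2, UQCRH and UQCRFS1 had no probe set of their own under the rule and were not analysed here. A further 9 probe sets name a subunit together with another gene and were not used.

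Each line was profiled on 3 arrays of the Affymetrix HG-U133 Plus design, 6 in all. SKOV3.ip1 is a derivative of the ovarian carcinoma line SKOV3, and both lines share that parent and a stable transfection with a PEA-15 vector. PEA-15 is a small cytoplasmic phosphoprotein that binds ERK and FADD. The S116A line carries the nonphosphorylatable form, with alanine at Ser116, and is the reference in every difference below. The S116D line carries the phosphomimetic form with aspartic acid. Its titles name Ser116 alone, its sample characteristics name a further serine, and so the number of substitutions is not settled by the labels. The labels do not say whether either line is a single clone or a pool, and arrays of the parent or of an empty vector were not analysed here, so a difference between the lines cannot be told apart from a difference between the clones or pools. Nor do the labels say that the 3 arrays of a line came from separate cultures, so p-values reflect array-to-array spread that can be partly technical.

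The respiratory chain of the inner mitochondrial membrane passes electrons from NADH through complex I, and from succinate through complex II, to ubiquinone, then through complex III and cytochrome c to complex IV, which reduces oxygen. Complexes I, III and IV pump protons as they do so, and ATP synthase uses the gradient. The complexes are built from core subunits, some of them encoded in mitochondrial DNA, and from many small accessory subunits encoded in the nucleus. Several complex IV subunits exist as a widespread form and as a form largely restricted to heart and skeletal muscle or to testis. Tumour cells differ widely in how far they rely on this chain.

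Of the subunit genes, COX7B2 fell by 3.16 and COX7A1 fell by 2.63 on the log2 scale in S116D, while 7 genes rose by 0.31 to 0.56. The genes that rose were NDUFA3, NDUFA5, NDUFA13, NDUFB1 and NDUFB7 of complex I, UQCRC1 of complex III and COX7C of complex IV. The 250 bases before the annotated start are shown for 6 genes: the testis form COX7B2 and its widespread counterpart COX7B, since their levels moved apart, and 4 of the genes that rose. Sequences are from RefSeq (GRCh38.p14) and run 5′ to 3′ towards the gene. Capitals mark matches, on either strand, to 5 letter strings: TTCCGG (the core of ETS factors such as GABPA), GCGCATGC (NRF1), AAGATGG (YY1), TATAAA (the TATA box) and CCAAT.
COX7B2, chr4:46909246-46909495, minus strand: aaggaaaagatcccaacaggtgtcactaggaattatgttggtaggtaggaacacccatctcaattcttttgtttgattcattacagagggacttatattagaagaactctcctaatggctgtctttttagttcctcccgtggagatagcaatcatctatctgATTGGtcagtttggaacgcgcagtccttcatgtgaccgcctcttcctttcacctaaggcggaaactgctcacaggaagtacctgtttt
COX7B, chrX:77899218-77899467, plus strand: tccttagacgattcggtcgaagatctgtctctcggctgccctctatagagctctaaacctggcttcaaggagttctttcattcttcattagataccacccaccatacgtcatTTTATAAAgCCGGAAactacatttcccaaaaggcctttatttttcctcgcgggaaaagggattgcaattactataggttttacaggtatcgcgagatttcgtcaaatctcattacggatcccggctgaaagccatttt
COX7C, chr5:86617691-86617940, plus strand: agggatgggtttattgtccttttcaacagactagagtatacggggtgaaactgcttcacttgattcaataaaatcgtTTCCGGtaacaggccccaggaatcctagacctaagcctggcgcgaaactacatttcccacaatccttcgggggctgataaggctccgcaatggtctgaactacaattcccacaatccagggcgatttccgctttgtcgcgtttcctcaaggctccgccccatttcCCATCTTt
NDUFA3, chr19:54102605-54102854, plus strand: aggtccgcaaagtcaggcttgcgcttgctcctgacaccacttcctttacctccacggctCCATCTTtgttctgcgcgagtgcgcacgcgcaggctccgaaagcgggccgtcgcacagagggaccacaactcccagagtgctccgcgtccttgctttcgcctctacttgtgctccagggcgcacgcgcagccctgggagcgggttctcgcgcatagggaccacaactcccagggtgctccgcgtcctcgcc
NDUFA5, chr7:123557819-123558068, minus strand: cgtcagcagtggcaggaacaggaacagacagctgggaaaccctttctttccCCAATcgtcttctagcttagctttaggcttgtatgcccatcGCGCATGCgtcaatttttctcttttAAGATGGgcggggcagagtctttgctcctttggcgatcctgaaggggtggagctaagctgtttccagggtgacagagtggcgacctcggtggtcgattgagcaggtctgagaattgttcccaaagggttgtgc
NDUFA13, chr19:19515975-19516224, plus strand: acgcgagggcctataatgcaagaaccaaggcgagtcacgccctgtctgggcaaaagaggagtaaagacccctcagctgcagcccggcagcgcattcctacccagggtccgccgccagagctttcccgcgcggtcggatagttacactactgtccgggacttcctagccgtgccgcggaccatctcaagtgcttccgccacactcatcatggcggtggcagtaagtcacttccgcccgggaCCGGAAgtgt
In COX7B the TATAAA matches on both strands overlap, and they lie beside a TTCCGG match. The COX7B2 window holds only a CCAAT match, and 5 CpG dinucleotides against 13 in COX7B and a median of 11 over all 35116 windows of this table. NDUFA3 and NDUFA13 hold 24 and 21 CpG. A window was matched for 50 of the 56 subunit genes. TTCCGG stood in 34.0% of these 50 genes and in 17.2% of all 27305 genes with a window. GCGCATGC stood in 16% against 3.22%, AAGATGG in 6% against 4.49%, TATAAA in 12% against 13.0% and CCAAT in 32.0% against 37.0%. AAGATGG was found in 3 of the 7 genes with a probe set that rose (COX7C, NDUFA3 and NDUFA5, the last in 1 of its 3 windows) and in 0 of the 42 subunit genes with a window and no called probe set. TTCCGG was found in 3 of the 7 (COX7C, NDUFA13, NDUFB7) and 14 of the 42. This split was looked at after the differences were known and was not tested. The 4 genes shown above that rose include all 3 with AAGATGG, and the NDUFA5 window shown is the one with that match. Of the genes that rose and are not shown, NDUFB7 held TTCCGG, NDUFB1 held CCAAT and UQCRC1 held none of the 5 strings. COX7A1 had no window. A match describes these letters only and is neither a bound site nor a cause.

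The values are log2 signals, with an array median between 7.862 and 7.893. A difference was called where limma's adjusted p (Benjamini-Hochberg, over all 54613 probe sets) was under 0.05. Arrays of one line correlated at 0.9951 to 0.9979 and arrays of different lines at 0.9866 to 0.9902, over all probe sets. PEA15 itself was 12.70, 12.62 and 12.50 in S116A and 12.69, 12.48 and 12.47 in S116D on its brighter probe set, a difference of -0.06 (limma adjusted p = 0.82). Its other probe set read 10.96, 11.03 and 10.97 in S116A and 10.87, 10.74 and 10.79 in S116D, without overlap, a difference of -0.19 (limma adjusted p = 0.20). These probe sets do not separate the introduced from the native transcript. Of 10 ovarian and epithelial markers, 5 fell (KRT19, KRT7, KRT18, KRT8 and EPCAM), where 5.39% of all genes fell, each on its brightest probe set. The mean signal of the list was 12.2 to 12.4 in S116A and 11.7 to 11.9 in S116D. PAX8 lay between 12.66 and 12.90 on all 6 arrays, and MUC16 at 6.56 to 6.78 was below the array median. Leukocyte markers (8 measured of 10) lay at a mean of 7.41 to 7.53 in S116A and 7.47 on every S116D array, near the array median, and none was called. The part of either list in the results was not tested.

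The subunit genes also followed a split that no label gives. On the second principal component, both of the first 2 S116A arrays and the first S116D array lay at 8.16 to 27.6, and S116A 3, S116D 2 and S116D 3 lay at -25.6 to -10.7. Complex I genes deviated from their mean over all arrays by a median of -0.16, -0.12 and 0.08 in S116A 1, 2 and 3 and of -0.03, 0.10 and 0.16 in S116D 1, 2 and 3. S116A 3 thus lay closer to the S116D arrays than to the other S116A arrays. It exceeded both of those in 28 of 32 complex I genes, 2 of 3 complex II genes, 4 of 6 complex III genes and 15 of 15 complex IV genes, by a median of 0.22, 0.16, 0.27 and 0.26. Over all genes the median deviation was between -0.01 and 0.01 on every array. The GAPDH 3′ minus 5′ control difference was 0.726 to 0.793 in the first set of arrays and 0.653 to 0.708 in the second, while that of ACTB overlapped, at 2.27 to 2.47 over all arrays. The part of these control values in the results was not tested. Because each set holds both lines, differences are also given within each set and with the set as a block.

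**Figure D1:**
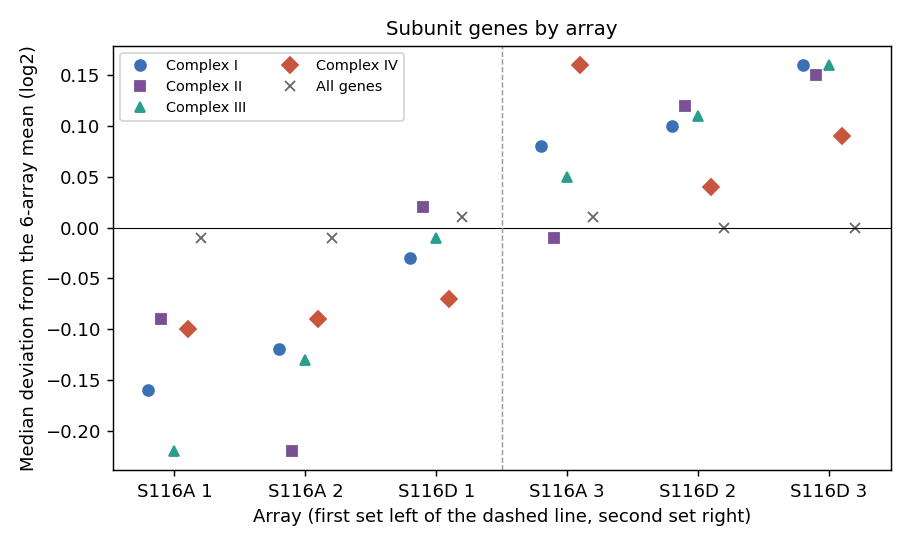
Median deviation of the subunit genes of each complex from their mean over all 6 arrays (y axis, log2 signal) for each array (x axis), with the first set of arrays left of the dashed line and the second set right. Within each set the S116D arrays lie above S116A for complexes I, II and III, and for complex IV S116A 3 at 0.16 lies above S116D 2 and S116D 3 at 0.04 and 0.09.

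Over the 107 subunit probe sets, 9 were higher in S116D and 2 lower, that is 8.41% and 1.87%. Of all probe sets 4.36% were called higher and 4.19% lower. The median difference was 0.05 against 0 for all probe sets. The S116D arrays all lay above the S116A arrays in 25 subunit probe sets, or 23.4%, against 12.5% of all probe sets, and all below in 8, against 11.5%. With each gene represented by its brightest probe set, 8 of 56 subunit genes rose and 2 fell, against 6.79% and 5.39% of all 19775 genes. In that fit 43 of the 56 genes, or 76.8%, had a positive difference, against 52.3% of all genes, with a median of 0.10 against 0.01. With the set of arrays as a block, an alternative chosen after the split was seen, 31 of 56 were positive and the median was 0. That block called 14 subunit probe sets higher and 5 lower, the 11 of the unblocked fit among them, where it called 7.47% of all probe sets higher and 7.36% lower. Over genes it called 12 subunit genes higher and 4 lower, where it called 11.9% and 10.4% of all genes. The gene count of 10 was 5 without S116A 2, 6 without S116D 2 and 5 without S116D 3. The share of all genes called in those fits is not given here.

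**Figure D2:**
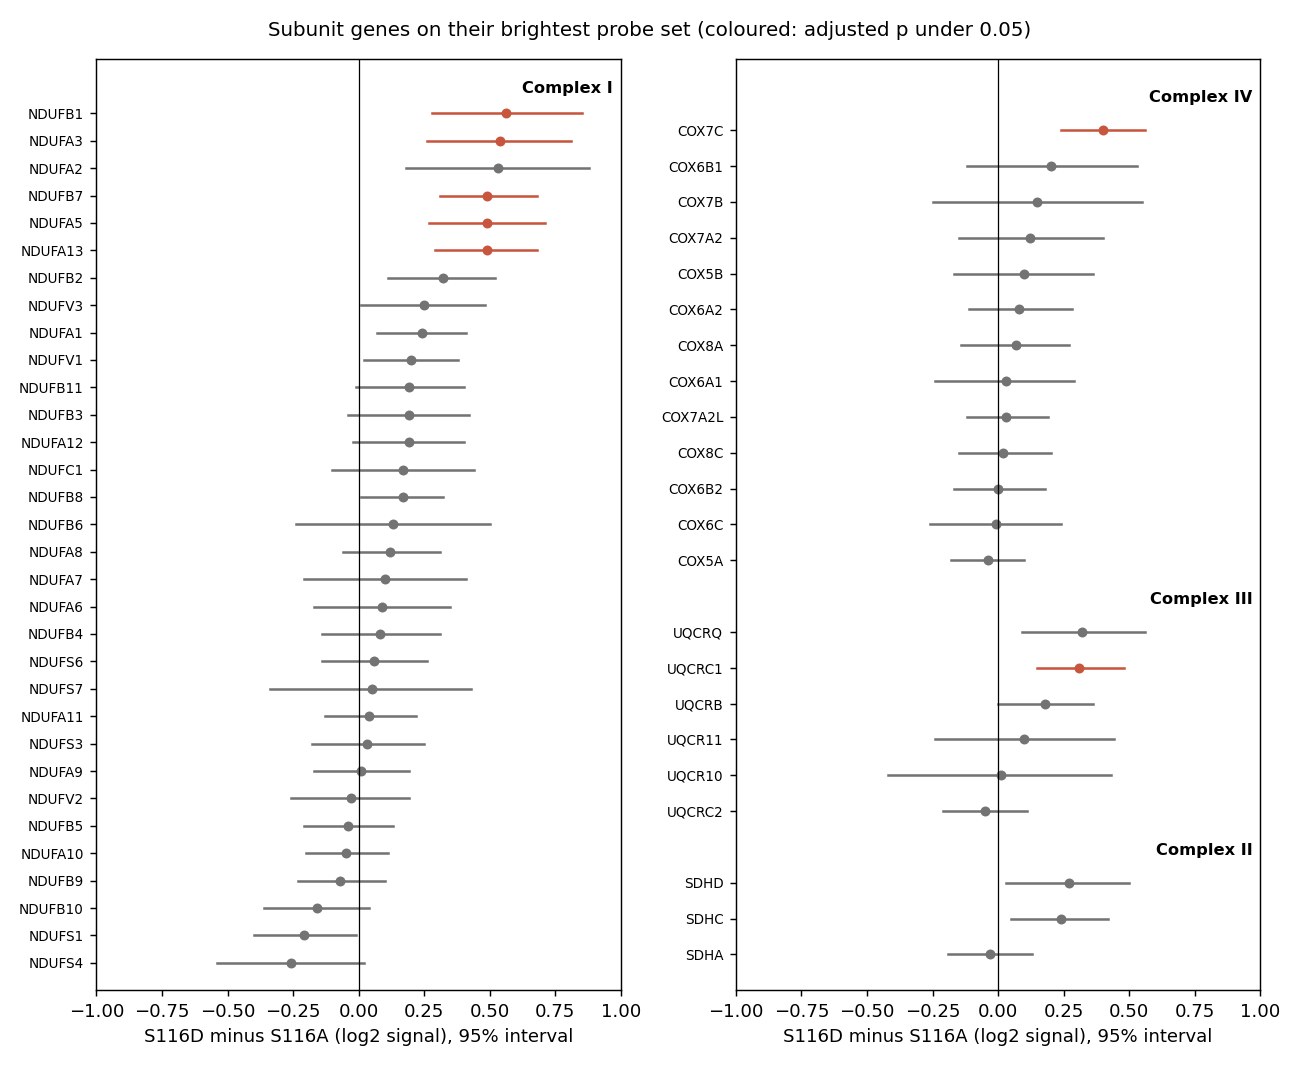
Difference S116D minus S116A with its 95% confidence interval (x axis, log2 signal) for subunit genes on their brightest probe set (y axis), by complex. Colour marks genes past an adjusted p of 0.05 in the fit over probe sets, so NDUFB2 is not coloured. COX7B2 at -3.16 and COX7A1 at -2.63 are not drawn, and all others fall between -0.26 and 0.56.

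In complex I, the entry point for electrons from NADH, 5 of 61 probe sets rose in S116D and none fell. That is 8.2% higher, read against the 4.36% of all probe sets. An unadjusted limma p under 0.05 was found for 15 of the 61, and for 10760 of all 54613. The lines lay apart with S116D higher in 12 probe sets and lower in 5, against 12.5% and 11.5% of all probe sets. The complex I median was 0.04, with 39 positive and 22 negative differences. It was 0.019 without S116A 1, 0.02 without S116D 3 and 0.083 without S116A 3. All 5 that rose belong to accessory subunits, 4 in the arm embedded in the membrane (NDUFA3, NDUFA13, NDUFB1, NDUFB7) and 1 in the arm that reaches into the matrix (NDUFA5). In the fit over genes NDUFB2, also of the membrane arm, was called as a sixth (0.32, adjusted p = 0.048), which it was not over probe sets (adjusted p = 0.067). By that fit 5 of 18 membrane-arm accessory genes rose with a median of 0.17, 1 of 9 matrix-arm accessory genes with a median of 0.10, and 0 of 5 core genes with a median of 0.03. The difference between these classes was not tested.

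NDUFB7, an accessory subunit on the intermembrane-space side of the membrane arm, read 7.91, 8.08 and 8.05 in S116A and 8.41, 8.58 and 8.54 in S116D. The lines did not overlap, and the difference was 0.49 ± 0.08 (SE, n = 3 per line), or 1.41-fold, with a limma adjusted p of 0.0068. Within the sets of arrays it was 0.42 and 0.50. The S116A values of NDUFB7 lay near the array medians of 7.862 to 7.893. Its other probe set, at 6.20 to 6.27 below the array median, differed by -0.01. NDUFA13, also known as GRIM-19 and described as a cell-death regulator as well as a membrane-arm subunit, read 11.09, 11.22 and 11.29 in S116A and 11.69, 11.60 and 11.78 in S116D. Every S116D array was above every S116A array, by 0.49 ± 0.08 on average, or 1.4-fold (limma adjusted p = 0.0094). These were the complex I probe sets whose calls held in every alternative run for them, each array left out in turn included. Both match several transcripts, so they were not counted in the alternative without such probe sets.

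NDUFA5, an accessory subunit of the matrix arm, read 11.31, 11.14 and 11.22 in S116A and 11.60, 11.66 and 11.89 in S116D. S116D 3 was the highest array, and the lines did not overlap (0.49 ± 0.10, 1.4-fold, limma adjusted p = 0.016). A second NDUFA5 probe set, at 5.46 to 5.61, differed by 0.05. NDUFB1, a small single-pass protein of the membrane arm, read 12.51, 12.82 and 12.95 in S116A and 13.19, 13.28 and 13.50 in S116D. The lowest S116D value lay above the highest S116A value, and the difference was 0.56 ± 0.13, or 1.48-fold (limma adjusted p = 0.027). A second NDUFB1 probe set, at 7.29 to 7.69 below the array median, differed by 0.13 with overlap between the lines. NDUFA3, another small membrane-arm subunit, read 11.01, 11.22 and 11.36 in S116A and 11.53, 11.79 and 11.88 in S116D. It differed by 0.54 ± 0.12, or 1.45-fold (limma adjusted p = 0.03), again without overlap. Within the first and second sets of arrays NDUFA5 differed by 0.37 and 0.55, NDUFB1 by 0.53 and 0.44, and NDUFA3 by 0.41 and 0.47.

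The count of 5 moved with single arrays: it was 9 without S116A 3, 3 without S116A 1, and 2 if S116A 2, S116D 2 or S116D 3 was left out. The share of all probe sets called in those fits is not given here. NDUFA5 lost its call without S116A 2, S116D 2 or S116D 3 (adjusted p = 0.055 to 0.069), and NDUFB1 (0.067 to 0.10) and NDUFA3 (0.089 to 0.12) without these or S116A 1. Leaving out probe sets whose probes match several transcripts kept 2 of the 5, NDUFA3 and NDUFA5.

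Among the remaining complex I genes the set of arrays changed several readings. NDUFA2, an accessory subunit of the matrix arm with a thioredoxin-like fold, read 10.58, 10.75 and 11.12 in S116A and 11.12, 11.41 and 11.51 in S116D on its brightest probe set. S116A 3 equalled S116D 1 at this precision, and the difference of 0.53 missed the threshold (limma adjusted p = 0.075), but with the sets as a block it was 0.40 (limma adjusted p = 0.005). NDUFA1 (0.20) and NDUFB2 (0.26) were also called higher with that block. NDUFS1, the large core subunit that carries iron-sulfur clusters, read 11.23, 11.08 and 11.33 in S116A and 10.96, 11.02 and 11.04 in S116D on its brightest probe set. The lines did not overlap, yet the difference of -0.21 missed the threshold (limma adjusted p = 0.23), and with the block it was called at -0.25. NDUFS4 is an accessory subunit added late in assembly. Its brighter probe set read 10.11, 10.19 and 10.53 in S116A against 9.88, 10.06 and 10.11 in S116D. That difference of -0.26 (limma adjusted p = 0.30) was called at -0.36 with the block. The dim NDUFS4 probe set differed by -0.02 without the block. That block thus gave 8 of 61 complex I probe sets higher and 2 lower, against 7.47% and 7.36% of all probe sets in the same fit, with 30 positive and 31 negative differences and a median of 0. Both genes that were lower with it belong to the matrix arm.

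**Figure D3:**
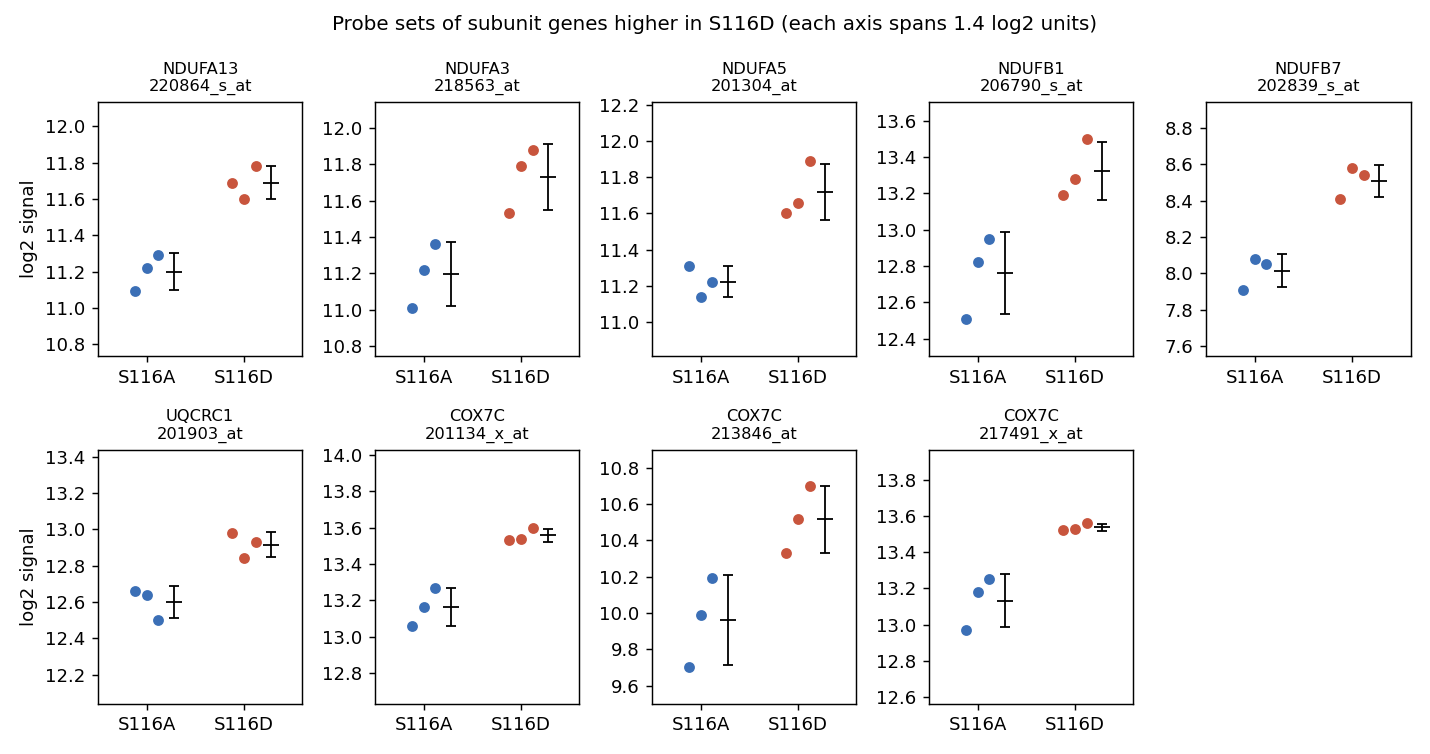
Log2 signal on each array (points, y axis) for S116A and S116D (x axis), for the probe sets of subunit genes that were higher in S116D, each panel spanning the same range of log2 units. In every panel the lowest S116D array lies above the highest S116A array, as for NDUFB7 at 8.41 against 8.08.

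Complex II, succinate dehydrogenase, links the citric acid cycle to the chain, and 0 of its 10 probe sets was called by limma. Of all probe sets 4.36% were called higher and 4.19% lower. Unadjusted limma p was under 0.05 for 5 of the 10, against 10760 of all 54613, and the smallest adjusted p was 0.10. The median difference of 0.21 was the highest of the complexes, with 7 of 10 probe sets positive. In 6 the lines lay apart with S116D higher, against 12.5% of all probe sets, but 7 of the 10 probe sets belong to SDHC and share its transcript. The complex II median was 0.12 without S116A 2 and 0.184 to 0.265 with any other array left out, and without S116D 1 there was 1 call.

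SDHC, a membrane anchor of the complex that carries part of the ubiquinone site, read 12.18, 12.01 and 12.27 in S116A and 12.36, 12.39 and 12.42 in S116D on its brightest probe set. All S116D values were above all S116A values, by 0.24 ± 0.08 (limma adjusted p = 0.13). In 5 of its 7 probe sets the lines lay apart with S116D higher, by 0.19 to 0.29, and the other two differed by -0.18 and -0.04 without lying apart. SDHD, the other membrane anchor, read 12.24, 12.17 and 12.36 in S116A and 12.31, 12.64 and 12.62 in S116D on its brighter probe set. S116D 1 lay below S116A 3, and the difference was 0.27 ± 0.10 (limma adjusted p = 0.18). With the array sets as a block SDHD was called higher in the fit over genes (0.19, limma adjusted p = 0.044) but not over probe sets (limma adjusted p = 0.065). Its other probe set, below the array median, read 6.34, 6.30 and 6.40 in S116A and 6.53, 6.43 and 6.41 in S116D. These values did not overlap, at a difference of 0.11 (limma adjusted p = 0.33). SDHA, the flavoprotein that oxidises succinate, read 11.99, 11.87 and 11.89 in S116A and 11.92, 11.85 and 11.88 in S116D. Its lines overlapped, at -0.03 with a 95% interval of -0.19 to 0.13 (limma adjusted p = 0.90).

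In complex III, which passes electrons from ubiquinol to cytochrome c, 1 of 13 probe sets rose and none fell. Of all probe sets 4.36% rose and 4.19% fell. The complex III median was 0.01, with 7 of 13 positive. The sign of that median was not stable: it was -0.051 with the array sets as a block and was -0.031, -0.049 and -0.016 if S116A 1, S116D 2 or S116D 3 was left out and 0.116 and 0.133 if S116A 3 or S116D 1 was. UQCRC1, a core protein on the matrix side of the complex, read 12.66, 12.64 and 12.50 in S116A and 12.98, 12.84 and 12.93 in S116D. The lines did not overlap, and the difference was 0.31 ± 0.07, or 1.24-fold (limma adjusted p = 0.034). Its lowest value was on S116A 3, and within the sets of arrays it differed by 0.33 and 0.38. The call was lost in the probe set fit whichever array was left out, with adjusted p from 0.063 to 0.13. The complex III count was 0 if any of S116A 1, S116A 2, S116D 1, S116D 2 or S116D 3 was left out, and 1, not that of UQCRC1, without S116A 3. UQCRC2, the partner core protein, was at 13.30 to 13.52 on all arrays and differed by -0.05 (limma adjusted p = 0.81).

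UQCRQ, a small subunit of complex III, read 12.23, 12.33 and 12.60 in S116A and 12.61, 12.74 and 12.79 in S116D. The lines were apart by only the last digit given, and the difference of 0.32 missed the threshold (limma adjusted p = 0.11), while with the sets as a block it was called at 0.24. UQCRB, which lies by the ubiquinone site, had 4 probe sets that did not move together. Its brightest read 12.68, 12.64 and 12.88 in S116A and 12.85, 12.94 and 12.95 in S116D (0.18, limma adjusted p = 0.26), and its dimmest, below the array median at 6.32 to 6.69, differed by -0.22 (limma adjusted p = 0.091). With the block the dimmest was called lower at -0.25. UQCR10 (0.01) and UQCR11 (0.10), 2 further small subunits, overlapped between the lines on their brightest probe sets.

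Complex IV, cytochrome c oxidase, had the largest differences of the 4 complexes: 3 of 23 probe sets rose, all of COX7C, and 2 fell, COX7A1 and COX7B2. Of all probe sets 4.36% rose and 4.19% fell. The complex IV median was 0.08, with 17 of 23 positive, but with the array sets as a block it was 0.001, with 12 of 23 positive. The median was 0.011 without S116A 1, 0.048 without S116A 2, 0.044 without S116D 3, 0.131 without S116A 3 and 0.135 without S116D 1. COX7A1, the form of subunit 7A found mainly in heart and skeletal muscle, read 10.54, 10.56 and 10.60 in S116A and 7.83, 7.93 and 8.04 in S116D. The S116A arrays lay close together, and all S116D arrays were near the array median of about 7.888. The difference was -2.63 ± 0.08, 6.19-fold lower in S116D (limma adjusted p = 3.4e-06), and it was -2.72 and -2.61 within the sets of arrays. COX7B2, the form of subunit 7B found mainly in testis, read 10.23, 10.80 and 11.19 in S116A and 7.37, 7.54 and 7.83 in S116D. Its S116A arrays spread over almost a full log2 unit, but the lowest was still far above the highest S116D array. The difference was -3.16 ± 0.22, 8.91-fold lower (limma adjusted p = 0.00012), and it was -3.14 and -3.50 within the sets. By size of fall in the gene fit COX7B2 ranked 8 and COX7A1 ranked 20 of 19775 genes. Each has 1 probe set, and both calls held in every alternative run. No detection calls were at hand to say how far the S116D values lie above background, so the folds hold on this log2 scale only. In bulk RNA, fewer cells with a transcript and less of it per cell cannot be told apart.

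The widespread counterparts of both genes were not called. COX7A2 read 13.45, 13.54 and 13.90 in S116A and 13.62, 13.77 and 13.87 in S116D, a difference of 0.12 (95% interval -0.15 to 0.40, limma adjusted p = 0.70). COX7B read 12.08, 12.28 and 12.81 in S116A and 12.39, 12.51 and 12.72 in S116D, a difference of 0.15 (-0.25 to 0.55, limma adjusted p = 0.76). In both genes S116A 3 was the highest of the 6 arrays, and the lines overlapped. COX7A1 minus COX7A2 was -3.31 to -2.91 in S116A and -5.84 to -5.79 in S116D, a change of -2.75. COX7B2 minus COX7B was -1.86 to -1.48 in S116A and -5.01 to -4.89 in S116D, a change of -3.31. Such a contrast shows unequal change between 2 probe sets, not their relative amounts. An exact two-sided permutation test gave p = 0.10 for each, the smallest that 3 arrays against 3 allow (0.25 adjusted over the 5 isoform pairs compared). For the other restricted forms the contrast changed by 0.06 for the muscle form COX6A2 against COX6A1, by -0.20 for the testis form COX6B2 against COX6B1 and by -0.05 for the testis form COX8C against COX8A (exact permutation p = 0.80, 0.40 and 0.90). COX6A2 and COX6B2 lay at 8.04 to 8.33 and COX8C at 4.98 to 5.25 on all arrays. Of 10 striated muscle markers 1 rose (TNNT1, 0.82) and 1 fell (TNNC1, -1.06), where 6.79% of all genes rose and 5.39% fell in the gene fit. The mean of these markers was 7.72 to 7.76 in S116A and 7.63 to 7.76 in S116D. The part of these markers in the result was not tested.

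**Figure D4:**
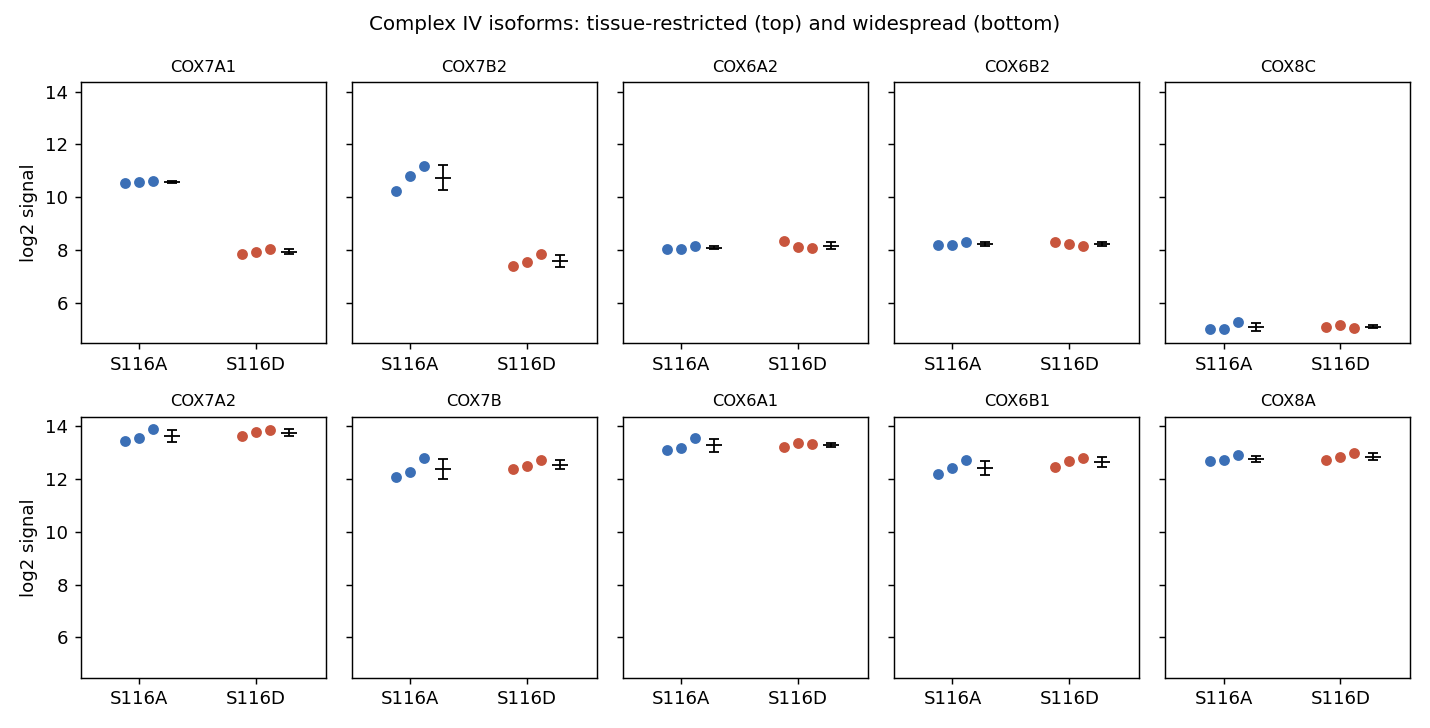
Log2 signal on each array (points, y axis) for S116A and S116D (x axis), with the tissue-restricted complex IV isoforms in the top row and the widespread ones in the bottom row. COX7A1 and COX7B2 drop from above 10 to below 8.1 between the lines, while COX7A2 and COX7B overlap between them.

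COX7C, a small subunit with no such paired form, rose on all 3 of its probe sets. The brightest read 13.06, 13.16 and 13.27 in S116A and 13.53, 13.54 and 13.60 in S116D, without overlap. That was a difference of 0.40 ± 0.07, or 1.32-fold (limma adjusted p = 0.01). A second bright probe set read 12.97, 13.18 and 13.25 in S116A and 13.52, 13.53 and 13.56 in S116D (0.41, limma adjusted p = 0.016). The third read 9.70, 9.99 and 10.19 in S116A and 10.33, 10.52 and 10.70 in S116D, a difference of 0.55 ± 0.14, or 1.47-fold (limma adjusted p = 0.048, and 0.053 after quantile normalization). Within the sets of arrays the brightest differed by 0.42 and 0.31. Without S116D 3 none of the 3 was called (limma adjusted p = 0.054, 0.071 and 0.17), without S116D 2 only the brightest was, and without S116A 1 or S116A 2 the third was not. Of the 3, 2 are probe sets that match several transcripts. The rest of complex IV (COX5A, COX5B, COX6A1, COX6B1, COX6C, COX8A and COX7A2L, the last known as a supercomplex factor) had no called probe set and differed on their brightest probe sets by -0.04 to 0.20. COX7B also has a dim probe set, at 6.10 to 6.96, that was 0.44 higher (limma adjusted p = 0.056) and was called with the block at 0.45.

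Genes of the same pathway outside the symbol rule went both ways. Counts for these lists, here and below, are from the fit over genes, which called 6.79% of all genes higher and 5.39% lower. COX4I1, the widespread form of the largest nuclear-encoded complex IV subunit, read 13.77, 13.91 and 13.90 in S116A and 13.33, 13.35 and 13.41 in S116D. It was lower on every S116D array, by 0.49 on average (difference -0.49 ± 0.06, limma adjusted p = 0.0013), opposite in direction to COX7C of the same complex. NDUFAB1, the mitochondrial acyl carrier protein that is also a complex I subunit, fell by 0.34 (limma adjusted p = 0.031). With these, 2 of the 5 chain genes outside the rule fell and 0 rose. COX4I1, NDUFAB1 and the assembly factor CMC2, given below, lie on chromosome 16. So do NDUFB10, UQCRC2 and COX6A2, which were not called. The part of chromosomal position in the falls of COX4I1, NDUFAB1 and CMC2 was not tested. COXFA4, formerly NDUFA4 and now counted with complex IV, read 12.13, 12.19 and 12.67 in S116A and 12.54, 12.77 and 12.96 in S116D. Its difference of 0.42 missed the threshold in the fit over probe sets (limma adjusted p = 0.16). The p-values of COX4I1 and NDUFAB1 are from the fit over genes. None of the 13 chain subunits encoded in mitochondrial DNA had a probe set used here.

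Of 18 ATP synthase genes 2 rose and 0 fell, against 6.79% and 5.39% of all genes in the same fit. ATP5MJ, a small proteolipid of ATP synthase, read 11.95, 11.97 and 12.52 in S116A and 13.00, 13.24 and 13.21 in S116D. That was 1.0 ± 0.15 higher, or 2.0-fold (limma adjusted p = 0.004), more than any subunit of complexes I to IV rose. ATP5F1C, the gamma subunit, rose by 0.24 (limma adjusted p = 0.018).

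Among 16 complex I assembly factors 5 rose and 2 fell, against 6.79% and 5.39% of all genes in the same fit. NDUFAF3 read 10.13, 10.35 and 10.26 in S116A and 10.90, 10.99 and 11.13 in S116D, 0.76 ± 0.10 higher (limma adjusted p = 0.0017). TMEM126B, which helps to assemble the membrane arm, rose by 0.49, FOXRED1 by 0.35, and NDUFAF1 and NDUFAF7 by 0.32 and 0.33. NUBPL, which delivers iron-sulfur clusters, fell by 0.32 and NDUFAF2 by 0.35. No complex II assembly factor (0 of 4 by limma, also 0 at an unadjusted p under 0.05) was called. UQCC4 (1 of 9 complex III factors) fell by 0.44 and CMC2 (1 of 24 complex IV factors) by 0.71, from 12.70, 12.75 and 12.96 to 11.98, 12.10 and 12.21 (limma adjusted p = 0.002).

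Of 15 regulators of mitochondrial biogenesis and mitochondrial DNA, 1 rose and 1 fell, with a median of -0.18. In the same fit 6.79% of all genes rose and 5.39% fell. TFB2M, a mitochondrial transcription factor, read 10.89, 10.85 and 11.03 in S116A and 10.09, 10.19 and 10.20 in S116D, a difference of -0.76 ± 0.08 (limma adjusted p = 0.00097). YY1 rose by 0.31 (limma adjusted p = 0.04). GABPA (-0.29, limma adjusted p = 0.055), NRF1 (-0.25, 0.11), TFAM (-0.18, 0.50) and PPARGC1A (-0.01, 0.98) were not called. Over these lists together 15 genes were called, against 6 if either S116A 2 or S116D 2 was left out, 7 if S116D 3 was and 9 if S116A 1 was. These lists were chosen with earlier results of these data known, so they lend no independent support to a direction.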

How the data were processed

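RNA from 3 S116A and 3 S116D samples was biotin-labelled and hybridised, per the labels' protocols. The deposited table gives 1 log2 signal per probe set and array, normalized by the authors. MAS5 and RMA appear in the submitters' processing notes, with neither role nor version, and the log2 scale was read from the values. Such summaries can compress differences of dim probe sets. Without 62 control probe sets, 54613 were fitted in R 4.3.3 with limma 3.58.1 (lmFit, and eBayes with an intensity trend), with Benjamini-Hochberg adjustment. A second fit took the brightest probe set of each of 19775 genes. Gene names came from GEO's platform annotation, with symbols updated through RefSeq. Fits were tested on simulated data with independent arrays. Those data held no split into sets of arrays, so that test does not cover it. Members and lists were chosen with earlier results of these data known. Array values are given for called members, and where a complex had fewer than 3 called probe sets for its 3 genes with the smallest adjusted p. For complex II they are given at least on the brightest probe set of each gene. Up to 4 called genes of each other list were named, and any named beyond this rule were picked with their values in view. The same-numbered arrays of the lines deviated from their line means with correlations of 0.4501, -0.04013 and 0.4418, so numbers were not taken as pairs. Precision is limited by 3 arrays per line.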

Additional observations from a re-analysis of the deposited data

How the results depend on the processing

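COX7A1, COX7B2, NDUFA13 and NDUFB7 kept their calls under every alternative run for them, and no called difference changed sign. NDUFA13 and NDUFB7 were not counted in the alternative without probe sets that match several transcripts. Quantile normalization, median centring, a filter at the median signal and eBayes without trend moved no count of a complex by over 1.5 times. The complex medians, which carry no test, were less stable: that of complex III was -0.007 after median centring, -0.029 without probe sets that match several transcripts and -0.051 with the block on sets of arrays, and that block gave -0.001 in complex I (0.038 otherwise) and 0.001 in complex IV (0.083 otherwise). With the replicate number as a block, although the numbers do not pair the arrays, complex I had 9 probe sets higher against 5, complex III 2 higher against 1 and 1 lower against 0, and called genes numbered 16 against 10 among members and 33 against 15 in the other lists. Array weights gave 8 higher in complex I, 1 in complex II and 2 in complex III, a complex III median of 0.139 against 0.005, and 18 and 31 called genes. Blocking on the 2 sets of arrays, an alternative chosen after seeing the data, meant that complex I had 8 higher and 2 lower and complex III 2 higher and 1 lower, with 16 and 35 called genes and SDHD among the members called. Without probe sets that match several transcripts, complex I had 2 higher and complex IV 1 against 3, and the complex II median was 0.115 against 0.209. Leaving out 1 array gave 2 to 9 higher in complex I, 0 to 1 in complex II, 0 to 1 in complex III and 0 to 3 in complex IV, medians of 0.019 to 0.083 in complex I, 0.12 to 0.265 in complex II, -0.049 to 0.133 in complex III and 0.011 to 0.135 in complex IV, 5 to 12 called member genes and 6 to 19 in the other lists. Of these alternatives, the share of all features called is given only for the block on sets of arrays. It was 7.47% of all probe sets higher and 7.36% lower, against 4.36% and 4.19% without the block. Changes in the counts, here and above, are thus not separated from changes over the whole table. The cause of the changes in counts and medians was not tested. No alternative used a pseudocount, since the values are already logarithms.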
